A study of Mus musculus with 20 samples.

Results

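The 10 genes followed here are the immediate early transcription factor genes of the Nr4a family (Nr4a1, Nr4a2, Nr4a3), the Egr family (Egr1, Egr2, Egr3) and the Fos and Jun part of AP-1 (Fos, Fosb, Jun, Junb). They were chosen by symbol, with earlier results of these data known, and all 10 were found among the 24862 gene rows of each count table. Shares of them called, set beside shares of all genes, are therefore descriptions and not tests of the set. Immediate early genes are transcribed within minutes of a signal, before any new protein has to be made. In T cells the signal is usually the T cell receptor with its calcium, NFAT and ERK branches, and the same genes also respond to growth factors, cytokines and stress in many other cell types, myeloid cells included. Nr4a genes encode nuclear receptors that act without a known natural ligand, Egr genes encode zinc finger factors, and Fos and Jun proteins pair as the AP-1 factor. In T cells, AP-1 works with NFAT to switch on cytokine genes, while Nr4a and Egr2 and Egr3 are known to hold activated T cells in check.

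The RNA came from mouse TH17 cells, the CD4 T cells that make interleukin-17, in 6 groups of 2 libraries. The CNS and ileum groups were GFP+ cells sorted from tissue suspensions of C57BL/6 mice, 50000 cells at a time, and prepared with the low-input SMART-Seq v4 kit. The promoter that drives GFP is not given in the sources used here. The Ad-c-Rel and Ad-control groups were TH17(β) cultures, naive CD4 cells grown with 2 ng/ml TGF-β1 and 20 ng/ml IL-6, with or without overexpressed c-Rel, an NF-κB subunit encoded by Rel. The miR-21-/- and control groups were TH17(23) cultures, grown from miR-21-/- or control mice with 20 ng/ml each of IL-6, IL-1β and IL-23, and their libraries were stranded total RNA. All cultures were stimulated with 5 µg/ml anti-CD3 and 2 µg/ml anti-CD28 while IL-4 and IFN-γ were blocked. How long before harvest the receptor was last engaged is not given in the sources used here. The labels do not say whether replicates were separate animals or cultures, so p-values measure the spread between these libraries only, which may be technical.

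Libraries held gene counts of 15421743 to 36711252. Genes with a count numbered 14224 and 11545 in the CNS libraries and 13927 and 10771 in the ileum libraries. Levels are given as CPM, the count of a gene scaled to the gene counts of its library. The sorted groups carried transcripts of other cells. A list of 20 myeloid and microglia markers summed to 28754 and 29697 CPM in CNS, against 2976 and 3190 CPM in ileum and 124.5 to 279.3 CPM in the cultures, where C1qb was at 0 in every cultured group. Of those 20 markers, 19 were higher in CNS than in ileum. The TH17 markers (8 genes) summed to 642.2 and 608.1 CPM in CNS, against 10576 and 11540 CPM in ileum, and the 14 T cell identity genes to 6021 and 6040 CPM in CNS, against 7820 and 7477 CPM in ileum. Neutrophil markers reached 228.5 to 231.9 CPM in CNS and were at most 0.800 CPM elsewhere. Jchain, a plasma cell gene, was at 0.892 and 1.04 CPM in CNS, against 3326 and 3270 CPM in ileum. In bulk RNA, fewer cells of a type and less RNA per cell cannot be told apart.

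Stretches of promoter are shown for the 5 genes with a motif match, to show where family members differ in letters, as a description of the letters in the window from 250 bases before to 50 bases after each listed start. Sequences are from RefSeq on GRCm38.p6. The set of windows used here covered 8 of the 10 genes and left out Egr1 and Egr3. Capitals mark the motif, with up to 30 bases either side (none after the κB match of Nr4a1). The CArG box is bound by serum response factor, which carries ERK and actin signals to Egr and Fos genes, and the κB motif by NF-κB, c-Rel included. The EGR motif was searched as GCGNGGGCG, the AP-1 motif as TGANTCA, the cyclic AMP response element as TGACGTCA and the Nr4a response element as AAAGGTCA, and these, the CArG box and the κB motif were searched on both strands. Egr2 has a CArG box in windows of 4 of its listed starts, of which both distinct boxes are shown, and its κB stretch, with 2 overlapping matches, lies at another start. Nr4a1 has an EGR match 60 bases before its start and a κB match that spans it.
Nr4a1 chr15:101266756-101266852 (+ strand): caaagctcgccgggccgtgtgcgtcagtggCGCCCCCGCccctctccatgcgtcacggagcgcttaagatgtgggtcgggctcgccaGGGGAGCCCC
Nr4a2 chr2:57124039-57124107 (- strand): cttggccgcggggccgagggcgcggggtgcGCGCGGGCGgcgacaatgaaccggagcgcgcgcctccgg
Egr2 chr10:67535352-67535422 (+ strand): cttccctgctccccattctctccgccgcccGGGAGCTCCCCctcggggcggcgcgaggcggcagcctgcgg
Egr2 chr10:67537464-67537533 (+ strand): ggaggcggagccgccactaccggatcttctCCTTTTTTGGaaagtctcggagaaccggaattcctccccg
Egr2 chr10:67537767-67537836 (+ strand): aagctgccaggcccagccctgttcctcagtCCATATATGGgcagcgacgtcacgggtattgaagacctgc
Fos chr12:85473646-85473715 (+ strand): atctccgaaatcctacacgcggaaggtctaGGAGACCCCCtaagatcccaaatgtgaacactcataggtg
Fosb chr7:19310057-19310263 (- strand): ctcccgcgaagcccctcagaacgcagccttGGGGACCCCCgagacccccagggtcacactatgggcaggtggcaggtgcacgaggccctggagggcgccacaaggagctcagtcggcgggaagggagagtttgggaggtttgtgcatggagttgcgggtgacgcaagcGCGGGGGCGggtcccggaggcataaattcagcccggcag
In these lines the capitals are an EGR and a κB match in Nr4a1, an EGR match in Nr4a2, κB then CArG then CArG in the Egr2 stretches, κB in Fos, and κB then EGR in Fosb. Bases outside the windows were not searched, so a gene without a match may hold the motif elsewhere. Of the 8 genes, 3 had the EGR motif, 4 the κB motif and 1 the CArG box in a window. The shares were 6.27%, 9.55% and 1.81% of all 27025 genes with a window, and 5.55%, 8.46% and 1.63% of all 32851 windows. The AP-1, cyclic AMP and Nr4a elements were in 0 of the 8, against 8.97%, 2.03% and 1.7% of all genes with a window, and 7.81%, 1.79% and 1.51% of all windows. The windows of Nr4a3 (gene at chr4:48045078-48086447), Jun (gene at chr4:95049036-95052222) and Junb (gene at chr8:84976909-84978748) matched none of the 6.

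Across the 12 libraries the order of the 6 groups differed between genes, within families too. Nr4a1 averaged 830.9 ± 11.6 CPM in CNS, 2089 ± 83.7 CPM in ileum, 538.1 ± 5.93 CPM in Ad-c-Rel, 164.6 ± 8.31 CPM in Ad-control, 159.9 ± 13.7 CPM in miR-21-/- and 139.9 ± 15.5 CPM in control cells (SD, n = 2 each, as for all levels here). The first 4 places in that gene, ileum, CNS, Ad-c-Rel and Ad-control, were separated from each other, while the last 3 groups overlapped in neighbouring pairs. Egr1, the founding member of its family, was highest in CNS, then ileum, Ad-c-Rel and Ad-control, and its Ad-control libraries overlapped those of miR-21-/-, which overlapped those of control. Fos ran in the same order as Egr1, with only miR-21-/- and control overlapping, and its group means spanned 502-fold. Junb, the Jun protein that pairs with BATF in TH17 cells, ran from ileum through CNS, Ad-c-Rel, Ad-control and control to miR-21-/- with no neighbouring pair overlapping. Levels are compared within a gene only, because CPM is not corrected for gene length.

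Of the 10 genes, 8 had all 4 sorted libraries above all 8 cultured ones, against 11.1% of the 10144 genes that averaged 5 CPM or more. The gap was widest for the Fos genes. Fos was between 1233 and 2508 CPM in sorted libraries and between 2.75 and 39.6 CPM in cultured ones, so that the lowest sorted library was 31.1 times the highest cultured one. Fosb was between 187.7 and 215.8 CPM in sorted libraries and between 0.100 and 3.98 CPM in cultured ones, a gap of 47.2 times. For Jun that gap was 4.34 times, for Junb 2.20 times and for Egr1 1.89 times. The exceptions were Nr4a3 and Egr3. In TH17(23) cultures they reached the level of the CNS group. Nr4a3 was at 71.5 and 57.5 CPM in control cultures, beside 60.7 and 31.3 CPM in CNS but 206.1 and 205.0 CPM in ileum. Egr3 was at 43.1 and 24.5 CPM in control cultures, beside 37.0 and 28.8 CPM in CNS and 5.97 and 4.99 CPM in ileum. Immediate early genes are also known to respond to tissue dissociation, and how the tissues were dissociated is not given in the sources used here. Source, dissociation, kit and culture go together in these groups and cannot be told apart, so no test was made across them.

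**Figure D1:**
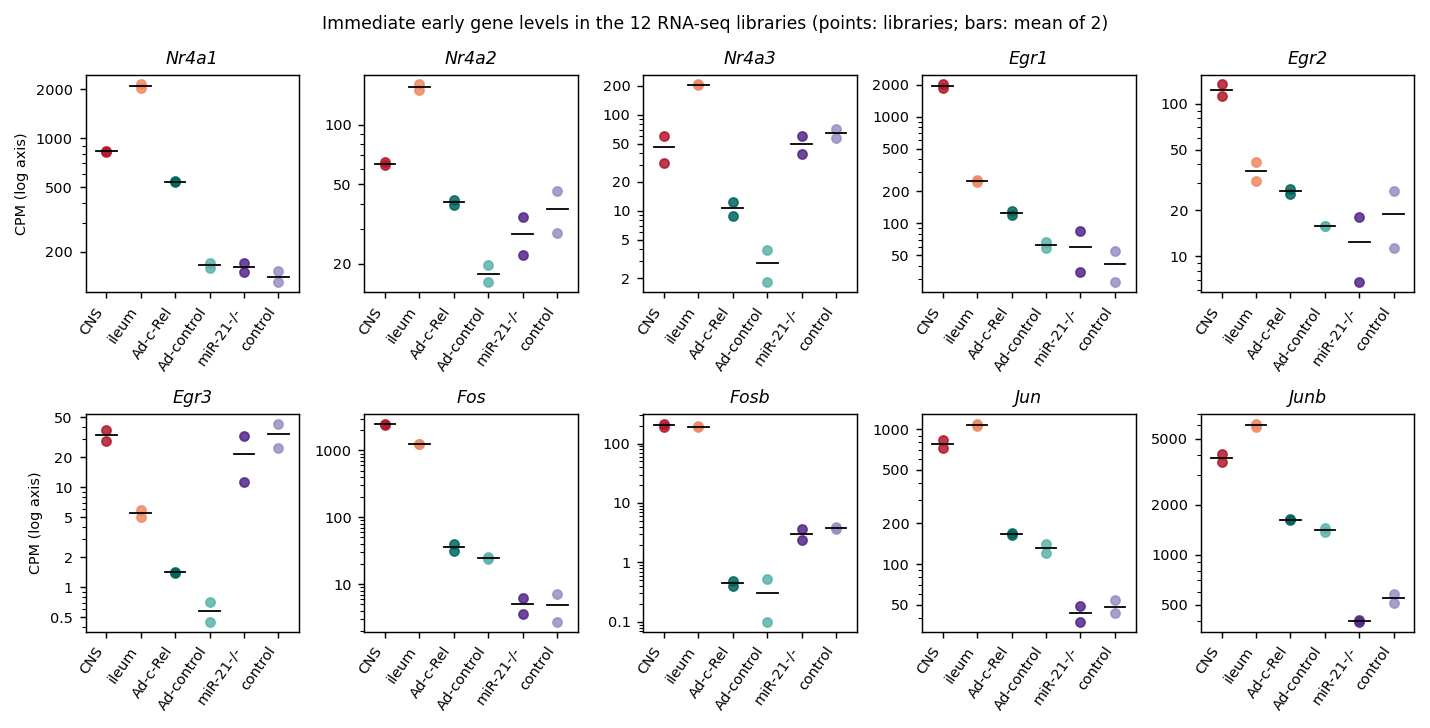
Level of each of the 10 genes in CPM on a log axis, with 1 point per library and a bar at the mean of the 2 libraries of a group. Fos and Fosb stand far higher in the CNS and ileum groups than in cultures, with Fos at 1233 to 2508 CPM against at most 39.6 CPM, whereas Nr4a3 and Egr3 in TH17(23) cultures reach 71.5 and 43.1 CPM.

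The first tested comparison sets cells sorted from the CNS against cells sorted from the ileum. The families moved in opposite directions: all 3 Nr4a genes were lower in CNS, while Egr1 and Egr2 were higher. Fos was higher, Jun and Junb were lower, and Fosb did not pass the test. Of the 10 genes 8 were called, against 9.66% of the 12038 genes tested. They were 3 higher, against 4.0% of all genes, and 5 lower, against 5.66%. Called means a Benjamini-Hochberg adjusted p under 0.05 in edgeR's quasi-likelihood test. The groups did not overlap for 9 of the 10, as for 60.5% of all tested genes. The median log2 fold change was −0.40 over the 10 genes and 0.08 over all genes.

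Nr4a1, known as a marker of recent antigen receptor signalling in T cells, had 839.1 and 822.8 CPM in CNS, against 2148 and 2030 CPM in ileum. That is a log2 fold change of −1.53, with SE 0.108 and an edgeR adjusted p = 0.00184. Nr4a2 had 62.9 and 64.6 CPM in CNS, against 148.8 and 159.4 CPM in ileum (−1.47, SE 0.197, adjusted p = 0.0125). Both genes were tight within each tissue. Nr4a3 had 60.7 and 31.3 CPM in CNS, against 206.1 and 205.0 CPM in ileum, and the 2 CNS libraries differed 1.94 times. Its log2 fold change was −2.37 (SE 0.348, adjusted p = 0.0160). All 3 Nr4a genes stayed called under all 12 alternative settings, and with libraries scaled to T cell identity genes their log2 fold changes were −0.99, −0.93 and −1.82.

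Egr1 had 1872 and 2008 CPM in CNS, against 253.4 and 245.2 CPM in ileum. Its log2 fold change of 2.76 (SE 0.124, adjusted p = 0.000721) was the most positive of the 10. Egr2, which restrains activated T cells, had 111.8 and 133.8 CPM in CNS, against 41.4 and 31.3 CPM in ileum (1.56, SE 0.287, adjusted p = 0.0315). That call was lost without CNS replicate 2 (adjusted p = 0.115) or ileum replicate 2 (adjusted p = 0.0718). Egr3, at chr14:70077317-70082613 and often induced together with Egr2 by NFAT, had 37.0 and 28.8 CPM in CNS, against 5.97 and 4.99 CPM in ileum. Both CNS libraries lay above both ileum libraries, but at 2.38 (95% interval 0.96 to 3.80) its adjusted p = 0.0612 did not pass the threshold. DESeq2 did call it (adjusted p = 0.000319), as did 7 of the 12 alternatives in all.

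Fos had 2435 and 2508 CPM in CNS, against 1261 and 1233 CPM in ileum, a log2 fold change of 0.79 (SE 0.100, edgeR adjusted p = 0.0108). Scaling to T cell identity genes put it at 1.33, and 1 fit over all 12 libraries ended the call (adjusted p = 0.108). Fosb, its close paralog, had 215.8 and 187.7 CPM in CNS, against 189.4 and 195.4 CPM in ileum, so the groups overlapped (−0.13, 95% interval −0.54 to 0.28), and its sign turned with library sizes only (0.069) and with T cell scaling (0.41). The Jun genes moved the other way from Fos. Jun had 731.9 and 834.3 CPM in CNS, against 1061 and 1102 CPM in ileum (−0.66, SE 0.127, adjusted p = 0.0345). Junb had 3591 and 4034 CPM in CNS, against 5910 and 6143 CPM in ileum (−0.86, SE 0.0990, adjusted p = 0.00806).

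The Jun and Junb calls depended on how libraries were scaled. With T cell identity genes as the reference Jun was at −0.12 (adjusted p = 0.589) and Junb at −0.32 (adjusted p = 0.111), and the median of all genes shifted to 0.62. With library sizes only the median was 0.28 and Jun was also lost (adjusted p = 0.0805), as it was without CNS replicate 1 (0.0689), ileum replicate 1 (0.0617) or ileum replicate 2 (0.0826). Over all genes 482 were called higher and 681 lower, beside 644 and 516 with library sizes only and 1097 and 343 with T cell scaling. Myeloid transcripts moved with tissue too: Ctss, a lysosomal protease gene, was at 7001 and 7333 CPM in CNS against 484.1 and 569.9 CPM in ileum, and Lyz2 at 5672 and 5640 CPM in CNS against 581.9 and 707.6 CPM in ileum. Their part in the Egr, Fos, Jun and Nr4a results was not tested.

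**Figure D2:**
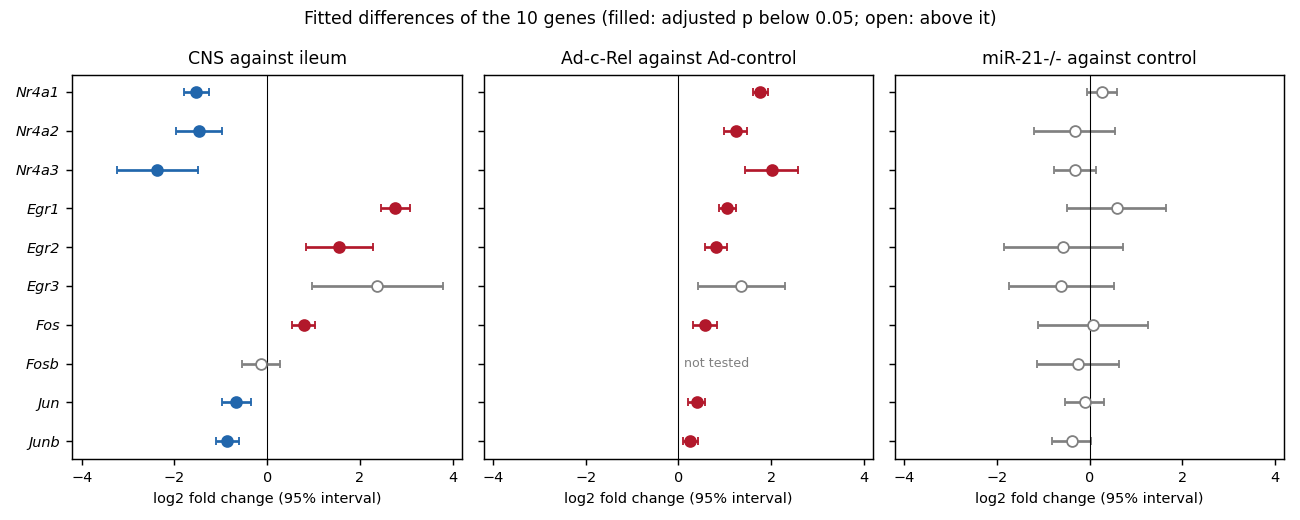
Log2 fold change of each gene in the 3 comparisons, with its 95% interval from edgeR. Filled points passed the adjusted p threshold of 0.05 (red higher, blue lower) and open ones did not. In CNS against ileum the Nr4a genes lie left of 0 and Egr1 at 2.76. In Ad-c-Rel against Ad-control all 9 tested genes lie right of 0.

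Ratios between members within a library do not depend on how libraries are scaled. Egr1 had 2.23 and 2.44 reads for each Nr4a1 read in CNS, against 0.118 and 0.121 in ileum. In all 8 cultured libraries that ratio was between 0.216 and 0.503, above ileum and below CNS. Fos had 3.33 and 3.01 reads for each Jun read in CNS, against 1.19 and 1.12 in ileum, and 0.0513 to 0.242 in cultures. The Fos and Jun proteins bind DNA as a pair, and these ratios are of reads, not of protein or of transcripts per length. Nr4a1 over Nr4a3 gave another order. It was 13.8 and 26.3 in CNS and 10.4 and 9.90 in ileum, 42.8 to 60.7 in Ad-c-Rel and 40.8 to 94.4 in Ad-control, and 2.83 and 3.81 in miR-21-/- beside 2.11 and 2.24 in control cultures. The 2 kinds of culture were thus apart in this ratio, with TH17(23) cultures lowest of all. A ratio of 2 genes can still depend on the library kit. Kit, source and culture cannot be told apart across these groups.

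**Figure D3:**
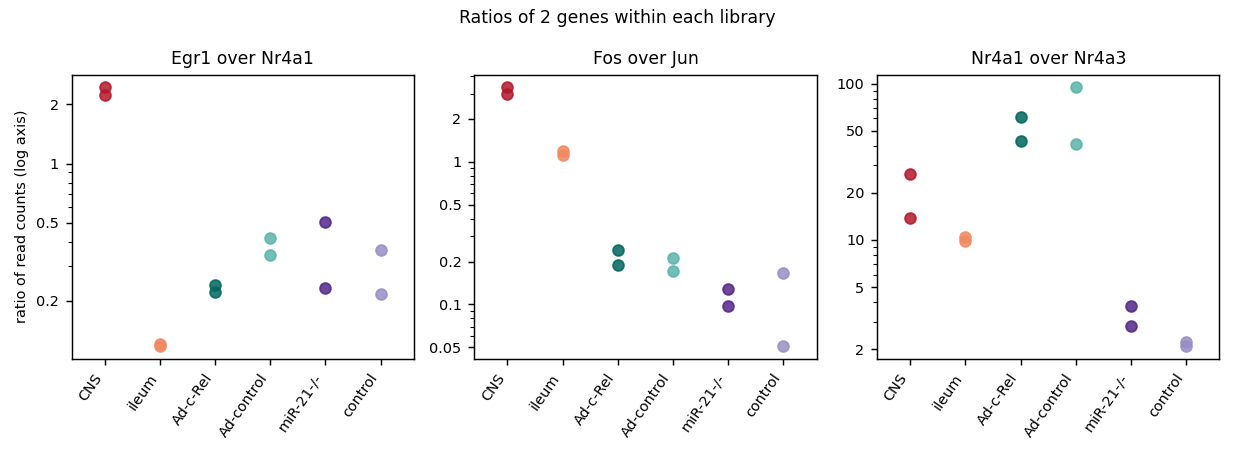
Ratio of read counts of 2 genes within each library, on a log axis, with 1 point per library. Egr1 over Nr4a1 is 2.23 and 2.44 in CNS and at most 0.503 in all other libraries, and Fos over Jun is 1.12 or more in the sorted groups, against at most 0.242 in cultures.

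The second comparison is of TH17(β) cultures with and without overexpressed c-Rel. Rel itself had 57.5 and 61.9 CPM in Ad-c-Rel, against 10.8 and 7.02 CPM in Ad-control, a log2 fold change of 2.82 (SE 0.145, edgeR adjusted p = 6.94e-09), the direction the labels give. Here 8 genes were called, 8 higher and 0 lower, against 14.3% of the 11711 genes tested, 8.15% higher and 6.11% lower. Egr3 was tested and not called, and Fosb had too few reads to be tested. In each of the 9 tested genes the 2 groups did not overlap, as in 58.7% of all genes. Their median log2 fold change was 1.06, beside −0.01 over all genes.

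All 3 Nr4a genes were called higher. Nr4a1 had 542.3 and 533.9 CPM in Ad-c-Rel, against 158.7 and 170.5 CPM in Ad-control, a fold change of 3.40 (log2 1.77, SE 0.0779, adjusted p = 1.40e-09). Nr4a2 had 39.4 and 41.9 CPM in Ad-c-Rel, against 16.1 and 19.6 CPM in Ad-control (log2 1.24, SE 0.117, adjusted p = 3.15e-06). Nr4a3 had 8.93 and 12.5 CPM in Ad-c-Rel, against 3.89 and 1.81 CPM in Ad-control (log2 2.01, SE 0.267, adjusted p = 8.59e-05). Nr4a3 rested on few reads, with 60 and 36 in the Ad-control libraries. Nr4a1 and Nr4a3 lay at percentiles 99.4 and 99.5 of the log2 fold changes of all tested genes.

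Egr1 had 129.8 and 118.4 CPM in Ad-c-Rel, against 66.1 and 58.3 CPM in Ad-control (log2 fold change 1.06, SE 0.0865, adjusted p = 8.25e-07). Egr2 had 27.6 and 25.5 CPM in Ad-c-Rel, against 15.7 and 15.7 CPM in Ad-control (0.82, SE 0.112, adjusted p = 0.000124). Egr3 had only 25 and 23 reads in Ad-c-Rel, against 11 and 9 in Ad-control, and at 1.36 (95% interval 0.43 to 2.29) it missed the threshold (adjusted p = 0.0503). Without the filter on low counts it passed (adjusted p = 0.0390). The 3 Egr genes all lay above 0.

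The AP-1 genes moved least. Fos had 31.6 and 39.6 CPM in Ad-c-Rel, against 25.8 and 24.0 CPM in Ad-control (log2 fold change 0.57, SE 0.118, adjusted p = 0.00423), and the call was lost without Ad-c-Rel replicate 2 (adjusted p = 0.0836). Jun had 168.5 and 163.9 CPM in Ad-c-Rel, against 121.5 and 140.8 CPM in Ad-control (0.40, SE 0.0866, adjusted p = 0.00611), lost without Ad-control replicate 1 (adjusted p = 0.0563). Junb had 1636 and 1615 CPM in Ad-c-Rel, against 1374 and 1454 CPM in Ad-control (0.26, SE 0.0749, adjusted p = 0.0311). The Junb call was lost under more settings than those of Fos and Jun, namely with library sizes only (adjusted p = 0.0636) and without Ad-c-Rel replicate 1 (0.149), Ad-c-Rel replicate 2 (0.178) or Ad-control replicate 1 (0.0941). Fosb had 7 and 8 reads in Ad-c-Rel, against 8 and 2 in Ad-control. The Fos and Fosb windows both hold a κB match, as do that of Nr4a1 and a window of Egr2. The windows of Nr4a2, Nr4a3, Jun and Junb hold none. Egr1 and Egr3 had no window to search. The part of κB matches in these results was not tested.

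In 1 fit over all 12 libraries, whose spread is taken from all 6 groups, Nr4a1 was the 1 member still called (adjusted p = 0.00113), among 18 genes higher and 1 lower of all. The log2 fold changes of the other members were near those above, for example 1.23 for Nr4a2 (adjusted p = 0.425) and 1.05 for Egr1 (adjusted p = 0.856). Over all genes 955 were called higher and 716 lower, beside 669 and 1029 with library sizes only. Myeloid markers summed to 256.2 and 249.7 CPM in Ad-c-Rel, against 271.3 and 279.3 CPM in Ad-control, with C1qb, C1qa, C1qc, Trem2 and Siglech at 0 in both groups. Of the 8 myeloid markers that could be tested, 3 were higher and 1 lower. Of the 8 TH17 markers 7 were higher and 0 lower, with a median log2 fold change of 0.88. The part of these markers in the results for the 10 genes was not tested.

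The third comparison asks what loss of miR-21 changes in TH17(23) cultures. Mir21a, the precursor gene, had 0 and 0 reads in miR-21-/- cultures, against 25 and 20 in control cultures. These reads do not measure the mature microRNA. Mir21a itself did not pass the test (log2 fold change −7.41, SE 0.990, edgeR adjusted p = 0.117), so a gene not called here may still differ. None of the 10 genes was called, and 0.00% of the 13428 genes tested was called by edgeR, where 2821 genes had an unadjusted p under 0.05. That result depended on the model. A fit with a replicate block, which the labels do not settle, did call genes, members among them, as given in the closing section. DESeq2 called 325 genes higher and 468 lower, with none of the 10 among them. The groups overlapped for 9 of the 10 genes, whereas 54.3% of all tested genes did not overlap.

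Junb was the exception, with 395.4 and 403.5 CPM in miR-21-/-, against 513.7 and 581.3 CPM in control cultures. Its log2 fold change of −0.39 (95% interval −0.80 to 0.03) did not pass the test (adjusted p = 0.263). Nr4a1 had 169.6 and 150.2 CPM in miR-21-/-, against 150.9 and 129.0 CPM in control cultures (0.26, 95% interval −0.06 to 0.58). Nr4a2 had 22.1 and 34.5 CPM in miR-21-/-, against 28.4 and 46.5 CPM in control cultures, and Nr4a3 had 60.0 and 39.4 CPM in miR-21-/-, against 71.5 and 57.5 CPM in control cultures. Each of those 2 genes had overlapping groups and a log2 fold change of −0.32.

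The Egr genes differed more between the 2 replicates than between genotypes. Egr1 had 85.2 and 34.9 CPM in miR-21-/-, against 54.9 and 27.8 CPM in control cultures (log2 fold change 0.58, 95% interval −0.49 to 1.65). Egr2 had 18.2 and 6.71 CPM in miR-21-/-, against 26.5 and 11.3 CPM in control cultures (−0.57, 95% interval −1.85 to 0.72). Egr3 had 32.1 and 11.2 CPM in miR-21-/-, against 43.1 and 24.5 CPM in control cultures (−0.61, 95% interval −1.75 to 0.53). In all 3 genes replicate 1 was above replicate 2 in both groups, by 1.75 to 2.87 times. Fos was low throughout, at 6.32 and 3.63 CPM in miR-21-/- against 7.09 and 2.75 CPM in control cultures. Fosb had 2.38 and 3.66 CPM in miR-21-/-, against 3.65 and 3.98 CPM in control cultures, and Jun had 49.1 and 37.3 CPM in miR-21-/-, against 42.9 and 53.6 CPM in control cultures. At this spread a change of the size seen in Ad-c-Rel cultures for Egr1 lies inside the interval, while for Nr4a1 the upper bound is 0.58.

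Other genes of the same response were counted on 6 lists, and those named as higher or lower were called by edgeR. The lists too were chosen with earlier results of these data known, so their counts are descriptions. Of all tested genes 4.0% were called higher and 5.66% lower in CNS, and 8.15% higher and 6.11% lower in Ad-c-Rel. Among 28 other immediate early response genes, CNS had 5 higher and 9 lower. Ad-c-Rel had 13 higher and 1 lower of 27 tested. In CNS, Ier3 (log2 fold change 3.49) and Zfp36 (1.74), whose product degrades cytokine mRNAs, were higher, and Rgs1, a regulator of G protein signals, was lower (−3.11). In Ad-c-Rel, the kinase gene Plk3 (1.21) and the activation marker Cd69 (1.05) were higher, and Klf2, which maintains quiescence and egress, was lower (−1.33). Of the other AP-1 and ATF genes, 1 of 11 was higher in CNS, Atf3 (1.39), and 2 were lower, Fosl2 (−2.08) and Batf (−1.42, lost with T cell scaling, adjusted p = 0.0562). In Ad-c-Rel, 2 of 10 were higher, Atf3 (1.55) and Fosl2 (0.27, lost in 6 alternatives), and 0 lower.

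Of 18 partners and targets of the Egr and Nr4a factors, 0 were higher and 7 lower in CNS, led by the inhibitory receptor gene Ctla4 (−3.82), the ubiquitin ligase gene Cblb (−2.67) and Tox (−4.17), a factor of persistently stimulated T cells. In Ad-c-Rel 9 of the 18 were higher and 1 lower, with Nfkbid (1.45), an atypical IκB gene, Ctla4 (0.83) and Irf4 (0.42) higher. The list of ERK feedback genes holds phosphatases and inhibitors of kinase signals, not all of them specific to ERK. In CNS 3 of 10 were lower and 1 higher, with Dusp10 (−2.78), Dusp4 (−2.10) and Dusp5 (−1.41) lower. In Ad-c-Rel 5 of 10 were higher and 0 lower, with Dusp5 (2.03), Spry1 (0.78) and Dusp4 (0.64) higher. Dusp5 and Dusp4 were thus lower in CNS and higher in Ad-c-Rel, like the 3 Nr4a genes. The upstream factors and kinases had 1 gene in each direction in both comparisons, of 19 tested in CNS and 18 in Ad-c-Rel, shares near those of all genes. Crem, a cyclic AMP responsive factor gene, was at −5.30 in CNS and 0.38 in Ad-c-Rel. Mef2a was at 1.18 in CNS, a call lost without any 1 library. Mef2d was at −0.43 in Ad-c-Rel, a call lost without Ad-c-Rel replicate 2 (adjusted p = 0.0534) or Ad-control replicate 1 (adjusted p = 0.0953) and in the 12-library fit.

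Heat shock genes, induced by protein stress, had calls in the same direction as the Nr4a genes in both comparisons. In CNS 0 of 10 were higher and 5 lower, with Hspa1a at 13.5 and 13.0 CPM in CNS against 263.1 and 218.8 CPM in ileum (log2 fold change −4.39), Hspa1b at −5.34 and Hsp90aa1 at −1.32. In Ad-c-Rel 7 of 10 were higher and 0 lower, with Hspa1a at 19.1 and 19.4 CPM in Ad-c-Rel against 5.25 and 4.42 CPM in Ad-control (2.06), Hspa1b at 2.20 and Hsph1 at 0.61. Hspa1a and Hspa1b are near-identical copies, so reads may be split between them. The part of the heat shock response in the results for the 10 genes was not tested. List medians in CNS ran from −0.93 for heat shock to 0.27 for other AP-1 genes, beside 0.08 for all genes, and in Ad-c-Rel from −0.02 for upstream factors to 0.51 for ERK feedback genes, beside −0.01. In miR-21-/- against control 0 genes of any list were called by edgeR, with list medians from −0.30 to 0.08.

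**Figure D4:**
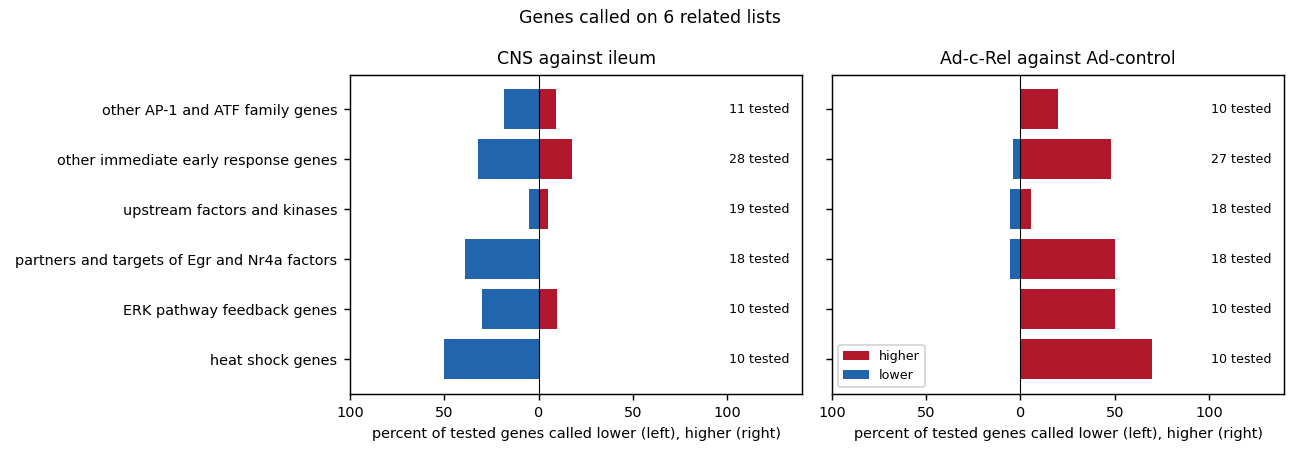
Percent of the tested genes of each list called lower (left, blue) and higher (right, red) by edgeR in 2 comparisons, with the number tested beside each bar. In CNS the heat shock list has 5 of 10 lower, and in Ad-c-Rel 7 of 10 higher.

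Genes with the most similar profiles over the 12 libraries were listed for 3 members, Nr4a1, Egr2 and Fos, which do not stand for their families. Likeness was the root mean square distance between centred log2(CPM + 1) profiles, over 9852 candidate genes, with libraries that share kit and source. Nearest to Nr4a1 were Hdc (0.348), Coq10b (0.421) and Hspa5 (0.454), and the nearest member was Junb (0.597), beside a median of 1.74 over all candidates. Nearest to Egr2 were Irf5 (0.394), Slc46a3 (0.409) and Ccdc86 (0.412), and the nearest member was Egr1 (0.876), beside a median of 1.42. Nearest to Fos were Tgfbi (0.792), Trf (0.803) and Dusp1 (0.818), with Fosb at 1.78 and a median of 3.69. Dusp1, an ERK and p38 phosphatase gene, averaged 1697 CPM in CNS, 1464 CPM in ileum, 67.0 CPM in Ad-c-Rel, 45.1 CPM in Ad-control, 15.4 CPM in miR-21-/- and 18.4 CPM in control cultures. Like Fos, it separated sorted from cultured libraries, and Hspa5, an endoplasmic reticulum chaperone gene, was highest in ileum like Nr4a1, at 5844 CPM, beside 2059 CPM in CNS.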

How the data were processed

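RNA-seq of 12 libraries was analysed from read counts per gene symbol, deposited by the authors as 1 table per library. The submitters' processing notes name, among other tools and with no role or order, TopHat2 2.1.0, HTSeq 0.11.0, Trim Galore 0.4.4 and the mm10 build. No source used here gives the annotation or strand setting, so reads of overlapping or antisense genes cannot be told apart. Summary lines that name no gene, 14.7% to 26.1% of each table, were left out. Reads with several alignments were 0 in the 4 TH17(23) libraries and up to 3.52% in the others. No source used here clearly names the kit of the Ad-c-Rel and Ad-control libraries. The 8 ATAC-seq samples were not analysed here.

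With edgeR 4.0.16 (R 4.3.3), each pair of groups was fitted without the other 8 libraries, after filterByExpr and TMM scaling. The two-sided quasi-likelihood F test was Benjamini-Hochberg adjusted over all genes tested, with a threshold of 0.05. Fold changes are the first-named group over the other and are TMM-scaled. Levels are plain CPM, each count over the sum of gene rows. SE is the log2 fold change divided by the root of F, so it restates the test. Groups of 2 leave 2 residual degrees of freedom. No replicate pair was close enough to be 1 library deposited again (chi-square over its degrees of freedom was at least 4.60). The script was tested on simulated data.

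Text names the 10 members, Rel and Mir21a, up to 3 called genes of each of 6 pathway lists by smallest p, the 2 most abundant genes of a marker list where shown, and the 3 nearest profiles to Nr4a1, Egr2 and Fos. C1qa, C1qb, C1qc, Trem2 and Siglech are named because they were at 0. Members and lists were chosen with earlier results of these data known. Alternatives were DESeq2 1.42.0, other scalings and filters, 1 fit over 12 libraries, a replicate block and leaving out each library.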

Additional observations from a re-analysis of the deposited data

How the results depend on the processing

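Of the member results, the 3 Nr4a genes and Egr1 in CNS and Nr4a1 in Ad-c-Rel kept their call under every alternative. Counts of all genes called in CNS (482 higher, 681 lower) were 1211 and 1331 with DESeq2, 1113 and 1300 with no filter, 1097 and 343 with T cell scaling and 1988 and 2012 in the 12-library fit. Leaving out 1 library gave 319 to 1285 higher and 531 to 724 lower, with 2 to 4 members higher and 4 to 5 lower. Members called lower were 3 with T cell scaling. In Ad-c-Rel (955 and 716) they were 1488 and 1314 with the replicate block and 18 and 1 in the 12-library fit, where 1 member was called, and 435 were lower with DESeq2. Leaving out 1 library gave 537 to 777 higher and 389 to 597 lower, with 6 to 8 members higher. In miR-21-/- (0 and 0 at the threshold) they were 325 and 468 with DESeq2, 9 and 31 with no filter and 0 and 1 in the 12-library fit. Leaving out 1 library gave 1 to 666 higher and 1 to 661 lower, with 0 to 1 members lower, which was Egr3 without miR-21-/- replicate 1 (log2 fold change −1.42, adjusted p = 0.0397). The cause of these differences was not tested.

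The labels do not say that replicate numbers mark a shared animal or day, and same-numbered libraries deviated together with r = 0.119 in CNS and ileum, 0.0366 in the Ad pair and 0.549 in the miR-21 pair. With the replicate block, miR-21-/- against control had 2287 genes higher and 2520 lower, with 2 members higher and 5 lower: Nr4a1 (0.26) and Egr1 (0.55) higher, and Nr4a2 (−0.33), Nr4a3 (−0.33), Egr2 (−0.58), Egr3 (−0.69) and Junb (−0.38) lower. Egr3 in Ad-c-Rel also passed under the block (adjusted p = 0.0299).

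Signs reversed only for values that were not called. In CNS, Fosb was at 0.069 with library sizes only and 0.41 with T cell scaling, and Mir21a at 0.094 with T cell scaling. In miR-21-/-, leaving out 1 library gave ranges of −0.77 to 0.13 for Nr4a2 (above 0 without miR-21-/- replicate 1 or control replicate 2), −0.066 to 1.11 for Egr1 (below 0 without miR-21-/- replicate 1) and −1.32 to 0.13 for Egr2 (above 0 without control replicate 1). The ranges were −0.41 to 0.87 for Fos (below 0 without miR-21-/- replicate 1 or control replicate 2), −0.68 to 0.11 for Fosb (above 0 without miR-21-/- replicate 1) and −0.28 to 0.11 for Jun (above 0 without miR-21-/- replicate 2 or control replicate 2). Depth limits Egr3 and Fosb in the Ad libraries, with at most 25 reads each.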
